A study of Mus musculus with 4 samples.

Results

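Expression of 8 transporter genes for hexoses, hexose phosphate and lactate was described in mouse macrophages cultured with necrotic fat. The genes were Slc2a1, Slc2a3, Slc2a6, Slc2a8 and Slc2a9 of the facilitative hexose carriers, Slc16a1 and Slc16a3 of the monocarboxylate carriers, and Slc37a2 of the hexose phosphate exchangers. They were taken by symbol from the 17013 genes with deposited values, and all 8 were found. Bone marrow of wild-type male C57BL/6 mice, whose age and pooling are not given in the sources used here, was grown into macrophages with M-CSF and placed on porous culture inserts. In every culture artificial necrotic bone fluid (aNBF), an extract of freeze-thawed bone, lay above the cells for 24 h, and a preparation of freeze-thawed abdominal fat lay below them. After centrifugation its middle layer served as control (Con), and its top layer, rich in fat, as the treatment (Fat). RNA was sequenced in 2 libraries of each medium, and nothing in the labels says whether the libraries came from separate animals or cultures. Their spread may therefore be technical, and p-values below measure no more than that spread.

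Hexoses enter cells down their gradient through the SLC2A (GLUT) carriers, of which SLC2A1 (GLUT1) serves basal and induced glucose uptake in macrophages. Activated macrophages turn much of this glucose into lactate, which leaves with a proton through the SLC16A (MCT) carriers with the help of the chaperone basigin. Of the SLC37 proteins, SLC37A2 and SLC37A4 sit in the endoplasmic reticulum and exchange glucose 6-phosphate for phosphate.

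The 8 genes were chosen by their family and function with the measured Fat and Con CPM of these same libraries, and the differences between them, already known. Their differences are therefore given as a description, without a test. The promoter sequence of the 4 genes with the largest differences is shown for the bases just before the transcription start, because SLC2A1 and SLC16A3 are textbook targets of hypoxia-inducible factor 1. RefSeq windows on build GRCm38.p6 were at hand for 7 of the 8 genes. Capitals mark ACGTG or GCGTG, the core of the hypoxia response element, on either strand, so that CACGT and CACGC are marked as well. Each window holds 250 bases, 5′ to 3′ in the direction of the gene.
Slc2a1 (chr4:119108495-119108744, + strand): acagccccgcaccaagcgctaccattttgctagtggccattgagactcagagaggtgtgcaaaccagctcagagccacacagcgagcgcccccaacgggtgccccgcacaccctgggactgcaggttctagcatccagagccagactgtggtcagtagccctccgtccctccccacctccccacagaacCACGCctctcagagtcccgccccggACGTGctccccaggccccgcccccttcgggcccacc
Slc16a3 (chr11:120948817-120949066, + strand): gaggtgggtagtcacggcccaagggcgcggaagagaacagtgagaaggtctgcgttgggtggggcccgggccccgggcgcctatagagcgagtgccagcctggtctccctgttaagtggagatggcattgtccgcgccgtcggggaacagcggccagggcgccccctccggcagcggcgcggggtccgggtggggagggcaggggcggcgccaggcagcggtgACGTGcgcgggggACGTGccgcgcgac
Slc37a2 (chr9:37255739-37255988, - strand): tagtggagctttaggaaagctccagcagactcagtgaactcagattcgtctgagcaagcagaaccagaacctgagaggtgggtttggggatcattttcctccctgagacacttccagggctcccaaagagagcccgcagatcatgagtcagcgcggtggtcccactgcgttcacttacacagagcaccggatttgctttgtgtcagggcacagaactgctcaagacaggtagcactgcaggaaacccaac
Slc2a6 (chr2:27027999-27028248, - strand): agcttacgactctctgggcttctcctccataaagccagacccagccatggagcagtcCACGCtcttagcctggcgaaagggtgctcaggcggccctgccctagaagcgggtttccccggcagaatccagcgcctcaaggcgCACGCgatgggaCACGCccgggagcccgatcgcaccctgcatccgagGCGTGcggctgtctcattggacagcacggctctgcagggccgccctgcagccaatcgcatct

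The Slc2a1 window held the core at 61 and 36 bases before the start, and the Slc16a3 window at 27 and 14 bases before it. The Slc2a6 window held it 4 times, in each case in the GCGTG form, and the Slc37a2 window held none. Among the 7 genes 5 had the core, against 38.6% of all 32851 windows and 55.3% of the 11952 windows of genes tested here. G and C made up 65.2% to 76.4% of the windows of Slc2a1, Slc2a6, Slc16a1 and Slc16a3, and 52.8% of that of Slc2a8, which also had the core. They made up 53.6% for Slc37a2 and 48.8% for Slc2a9, which had none, beside a median of 59.6% for tested genes. No excess is read from the count of 5. The ACGTG form stood in the windows of Slc2a1, Slc16a1 and Slc16a3, and in 21.4% of the windows of tested genes. In Slc16a1 it lay within an E-box, CACGTG, which 8.27% of those windows held. A GC box, GGGCGG, was found in Slc2a1, Slc2a6, Slc16a1 and Slc16a3 and in 57.1% of the windows of tested genes. A nuclear receptor motif, AGGTCA, was found in Slc2a9 alone of the 7 windows and in 10.6% of those of tested genes. These matches describe the letters of each window and show no binding. The windows printed were picked by the size of the differences, and a link between motif and difference was not tested.

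Expression was compared as CPM, the reads of a gene scaled to a common library size, on the scale log2(CPM + 0.1). The comparison took in 12470 genes that reached 0.5 CPM in no fewer than 2 libraries. All 8 transporters passed this filter. In the fit with limma across all tested genes, at an adjusted p-value under 0.05, 3.99% were called higher in Fat and 5.0% lower, or 9.0% in all, and no call is reported for the 8. Both Fat libraries lay above both Con libraries for 5 of the 8 transporters and below them for 2, which held for 29.4% and 26.2% of all tested genes, or 55.6% in either direction. Because the choice of genes used this comparison, nothing is read from these counts.

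The libraries held between 33573852 and 40785872 reads. Slc2a1 was covered by 5870 to 13909 reads per library and Slc2a3, the lowest of the 8, by 129 to 176. The 8 macrophage markers checked, from Lyz2 to Adgre1 (listed under its older symbol Emr1), were all present and summed to 33920 to 35962 CPM in Con and 26918 to 28504 CPM in Fat, and 2 of them, Fcgr1 and Mertk, were called lower. Lyz2 made up most of these sums (20347 to 28720 CPM per library, limma adjusted p = 0.209), and without it they were 7101 to 7241 CPM in Con and 6571 to 6988 CPM in Fat. The 8 adipocyte markers summed to 0.133 to 0.177 CPM in Con and 4.81 to 9.62 CPM in Fat, with Adipoq, Lep, Cidea and Thrsp at 0 reads in both Con libraries. Car3 made up most of the Fat sums, at 7.21 CPM in replicate 1 and 3.39 CPM in replicate 2. It was the only adipocyte marker tested, and it was called higher (limma adjusted p = 0.00159). Both Fat libraries lay above both Con libraries for 7 of the 8 adipocyte markers, beside 29.4% of all tested genes. They lay below both Con libraries for 6 of the 8 macrophage markers and above them for 0, beside 26.2% of tested genes below. Of the 5 fibroblast, 6 neutrophil and 5 lymphocyte markers with values, 3, 4 and 4 lay below in the same way, and 0 above. Marker sums were 438 to 575 CPM for fibroblasts, 287 to 333 CPM for neutrophils, 15.1 to 19.5 CPM for lymphocytes, 1.24 to 1.71 CPM for endothelial cells and 0 to 0.0533 CPM for erythroid cells. Of the fibroblast markers, Dcn was called lower (limma adjusted p = 0.0358). The part of these shifts in the values below was not tested. In such bulk RNA, fewer cells with a transcript and less transcript per cell cannot be told apart.

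Slc2a1, the gene of GLUT1, had 173 CPM in Con replicate 1, 195 CPM in Con replicate 2, 316 CPM in Fat replicate 1 and 339 CPM in Fat replicate 2, the order kept for all values below. Both Fat libraries were well above both Con libraries. The mean was 1.78-fold higher in Fat, a log2 difference of 0.83 (standard error 0.07), and leaving out any single library gave 0.75 to 0.92. Slc2a3, the gene of the high-affinity carrier GLUT3, was at 3.80 and 3.60 CPM in Con and at 4.02 and 4.29 CPM in Fat. The groups did not overlap, but the lowest Fat value was only 1.06-fold above the highest Con value, and the log2 difference of 0.16 was little more than its standard error of 0.13. Per transcript length (TPM), the level of Slc2a1 was 70.0 and 83.4 times that of Slc2a3 in the Con libraries and 121 and 122 times in the Fat libraries.

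Slc2a6 encodes GLUT6, a carrier of lysosomal membranes known to be induced in inflammatory macrophages. Its level was 20.0 and 19.9 CPM in Con and 9.86 and 9.90 CPM in Fat. These were the tightest replicates of the 8 genes, 0.01 apart on the log2 scale in both media, and the groups were far apart. The mean was 2.02-fold higher in Con, a log2 difference of -1.01 (standard error 0.08), which moved by at most 0.01 when a library was dropped. Slc2a8 encodes GLUT8, another intracellular carrier. Its values of 12.0 and 14.1 CPM in Con and 12.2 and 13.1 CPM in Fat overlapped, with a log2 difference of -0.04 (standard error 0.10). Without each library in turn this ranged from -0.15 to 0.08, so no direction can be given. Within each library the TPM of Slc2a8 was below that of Slc2a6 in Con, at 0.616 and 0.727 times its level, and above it in Fat, at 1.27 and 1.36 times.

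Slc2a9, the gene of the urate carrier GLUT9, was at 18.4 and 17.9 CPM in Con and at 15.8 and 14.7 CPM in Fat. Both Fat libraries were the lower, and the log2 difference was -0.25 (standard error 0.08). The fold between the means was 1.19.

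Slc16a3, the gene of the lactate exporter MCT4, was at 51.5 and 48.1 CPM in Con and at 77.3 and 93.0 CPM in Fat. The mean was 1.71-fold higher in Fat, a log2 difference of 0.77 (standard error 0.09). The Fat replicates differed by 0.27 on the log2 scale, the widest gap between replicates among the 8 genes, and without Fat replicate 2 the difference was 0.63. Slc16a1 encodes MCT1, which carries lactate, pyruvate and ketone bodies in either direction. It was at 21.0 and 22.6 CPM in Con and at 26.0 and 25.6 CPM in Fat, so the groups did not overlap, and the log2 difference was 0.24 (standard error 0.07). The ratio of Slc16a3 to Slc16a1 in TPM was 4.22 and 3.66 in the Con libraries and 5.12 and 6.24 in the Fat libraries.

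Slc37a2, an exchanger of glucose 6-phosphate and phosphate that is abundant in macrophages, was at 246 and 283 CPM in Con and at 377 and 371 CPM in Fat. Both Fat libraries were above both Con libraries. The mean was 1.41-fold higher in Fat, a log2 difference of 0.50 (standard error 0.07), and 0.40 to 0.61 when a library was dropped.

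**Figure D1:**
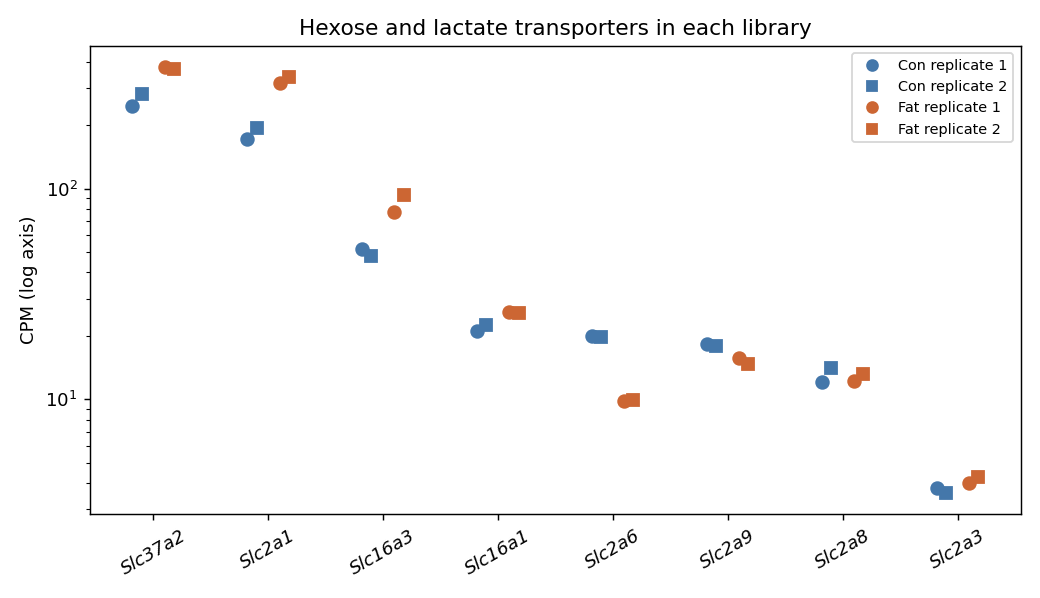
CPM (log axis) of the 8 transporters in each library, with circles for replicate 1 and squares for replicate 2, Con in blue and Fat in orange. Slc2a1, Slc16a3 and Slc37a2 sit higher in both Fat libraries, Slc2a6 sits at 9.86 and 9.90 CPM in Fat below 20.0 and 19.9 CPM in Con, and the Slc2a8 points overlap.

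Levels were compared between genes in TPM. In Con the order was Slc2a1 (155 ± 10.9 TPM, SD, n = 2), Slc37a2 (129 ± 11.1), Slc16a3 (41.9 ± 2.56), Slc2a6 (20.2 ± 0.395), Slc2a8 (13.6 ± 1.32), Slc16a1 (10.7 ± 0.410), Slc2a9 (10.2 ± 0.354) and Slc2a3 (2.03 ± 0.107). Slc16a1 and Slc2a9 were the only neighbours whose replicate values overlapped. In Fat the order was Slc2a1 (282 ± 13.8 TPM, SD, n = 2), Slc37a2 (187 ± 2.49), Slc16a3 (73.2 ± 9.49), Slc2a8 (13.5 ± 0.671), Slc16a1 (12.9 ± 0.123), Slc2a6 (10.2 ± 0.0257), Slc2a9 (8.72 ± 0.460) and Slc2a3 (2.33 ± 0.107), and no neighbours overlapped. Slc2a6 thus stood in place 4 in Con and in place 6 in Fat. Averaged over the 4 libraries, the TPM level of Slc2a1 was above that of 95.2% of the tested genes, Slc37a2 above 93.2% and Slc16a3 above 79.7%, while Slc2a3 was above 14.6%.

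The other carriers of these families were listed by family, with the sodium-coupled hexose and inositol carriers (Slc5a) and Slc50a1 added. Of 33 such genes 25 had deposited values, and 13 of these fell under the filter on low values. Slc2a4, the insulin-regulated GLUT4 of fat and muscle, had 0 and 2 reads in the Con libraries and 2 and 2 in the Fat libraries, and Slc2a5, the fructose carrier GLUT5, had at most 2 reads in any library. Both stayed at or below 3 reads in every library, taken as the limit of detection, which is 0.0732 to 0.0885 CPM. Limits of this kind cover counting error only.

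Of the 12 related carriers tested, 3 rose in Fat and 0 fell (limma, Benjamini-Hochberg adjusted over all 12470 genes). The share called higher over all genes is the 3.99% given above. The list was drawn up with earlier results of these data known, so no enrichment is read from these counts. At an unadjusted limma p-value under 0.05, 4 were higher and 2 lower, and edgeR and DESeq2 on the recovered reads also called 0 lower. Slc5a3, a sodium-coupled carrier of myo-inositol, was at 15.5 and 14.0 CPM in Con and at 24.5 and 27.3 CPM in Fat, a log2 difference of 0.81 (standard error 0.09, limma adjusted p = 0.00447). Slc16a10, a carrier of aromatic amino acids, rose from 121 ± 11.8 to 159 ± 1.21 CPM (SD, n = 2 each; log2 difference 0.39, limma adjusted p = 0.0189), a call lost without Fat replicate 2 (adjusted p = 0.057). Slc16a6 rose from 21.7 ± 0.671 to 27.2 ± 2.04 CPM (log2 difference 0.32, limma adjusted p = 0.0474), and this call was lost with any library left out (adjusted p between 0.0586 and 0.192), with TPM (0.0737), with no filter (0.0597), with median ratios (0.0511), without the mean-variance trend (0.147) and by DESeq2 (0.0805). Of the abundant relatives that were not called, Slc37a3 had a log2 difference of 0.07, Slc50a1 -0.06 and Slc37a4, the glucose 6-phosphate transporter of the endoplasmic reticulum, 0.22 (limma adjusted p = 0.54, 0.644 and 0.13). The median log2 difference of the 12 was 0.05, and that of all tested genes 0.01. The 8 transporters had a median of 0.20, from which nothing is read, because they were chosen with these values known.

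**Figure D2:**
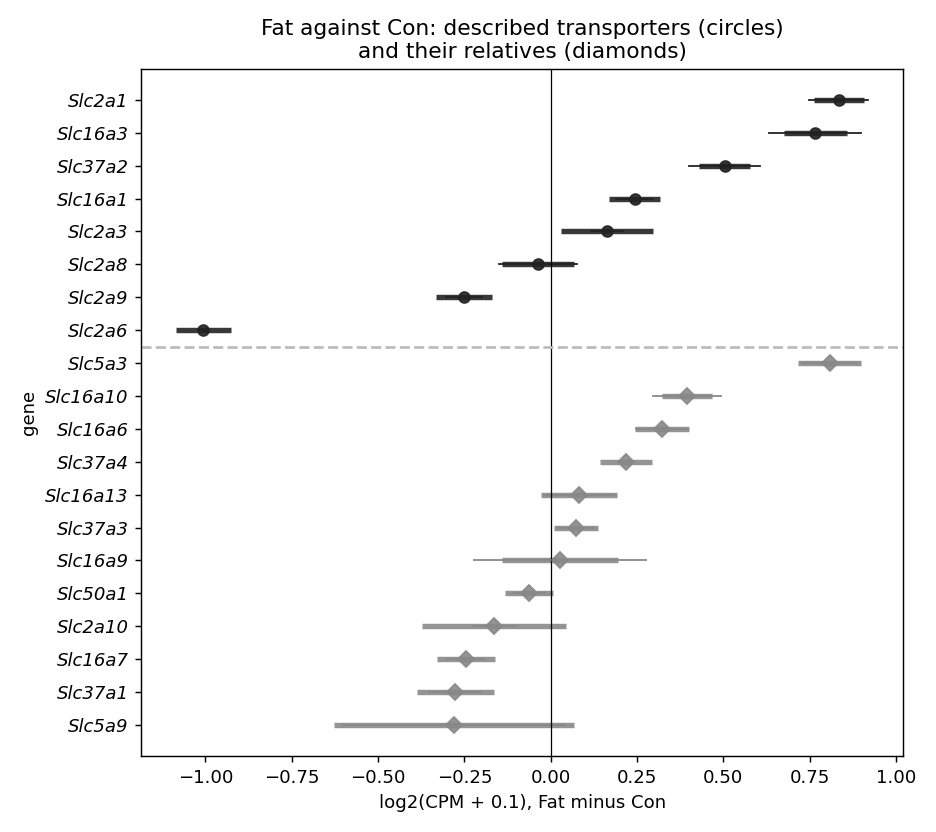
Difference between Fat and Con in log2(CPM + 0.1) for the 8 transporters (black circles) and the 12 related carriers tested (grey diamonds), with thick bars for the standard error and thin lines for the range with each library left out. Slc2a1, Slc16a3 and Slc5a3 lie near 0.8 and Slc2a6 near -1, while most relatives lie within 0.4 of 0.

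Within the Slc2a family the summed TPM of the 11 members with values was 194 and 210 in the Con libraries and 308 and 328 in the Fat libraries. Slc2a1 held 76.0% and 77.5% of it in Con and 88.5% and 89.0% in Fat. The share of Slc2a6 was 10.6% and 9.5% in Con and 3.32% and 3.13% in Fat. Slc2a8 held 6.52% to 6.90% in Con and 4.23% to 4.26% in Fat, although its own level overlapped between the media. Among 12 Slc16a genes, Slc16a3 held 31.6% and 32.0% of the summed TPM in Con and 38.1% and 42.8% in Fat, and Slc16a10 between 28.9% and 31.2% in all 4 libraries. Slc16a1 held 6.86% to 8.75% across the 4 libraries. Slc37a2 held 73.3% and 75.8% of the 4 Slc37a genes in Con and 79.4% and 79.7% in Fat. These shares follow from the levels already given and were not tested.

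**Figure D3:**
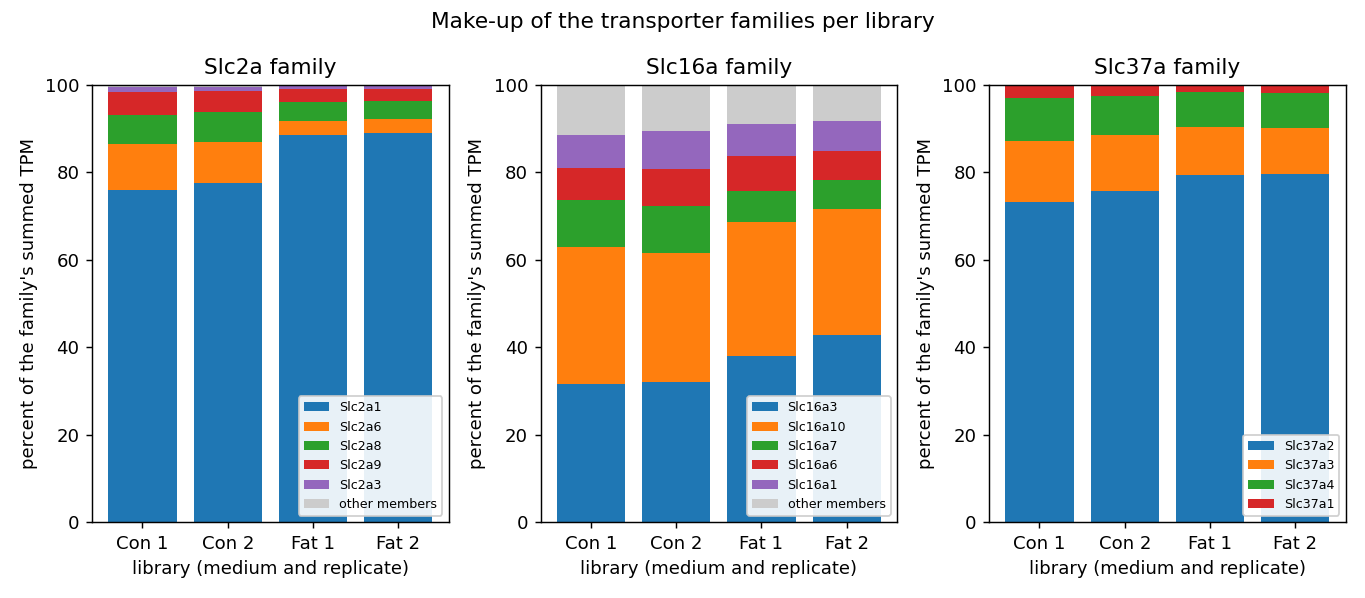
Percent of each family's summed TPM held by its members, per library, with bars starting at 0 and stacked to 100. The Slc2a1 part grows from 76.0% and 77.5% in Con to 88.5% and 89.0% in Fat, and the Slc16a3 part from 31.6% and 32.0% to 38.1% and 42.8%.

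Chaperones and regulators of the carriers were next compared, as a list of 18 genes that all passed the filter. Of these 1 rose and 0 fell by limma, beside 3.99% and 5.0% of all tested genes, and 3 were higher and 0 lower at an unadjusted p-value under 0.05. EdgeR and DESeq2 also called 1 higher and 0 lower. As for the related carriers, no enrichment or lack of it is read from these counts. Txnip, an arrestin that removes GLUT1 from the cell surface and whose gene responds to glucose, was at 618 and 643 CPM in Con and at 848 and 870 CPM in Fat (log2 difference 0.45, standard error 0.06, limma adjusted p = 0.00763). Bsg, the gene of basigin, was at 203 and 210 CPM in Con and at 213 and 214 CPM in Fat (log2 difference 0.04, standard error 0.05, limma adjusted p = 0.667). Emb, which encodes embigin, the chaperone of MCT2, had a log2 difference of -0.09 (limma adjusted p = 0.4). Hif1a, the gene of the oxygen-regulated subunit of hypoxia-inducible factor 1, was at 220 and 176 CPM in Con and 193 and 189 CPM in Fat, and its log2 difference of -0.04 had a standard error of 0.10. Rab10, a GTPase of carrier vesicles, had a log2 difference of -0.04 (limma adjusted p = 0.773).

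The enzymes on either side of the carriers were listed from hexose phosphorylation to lactate, with the use of glucose 6-phosphate in the endoplasmic reticulum and of fructose and urate. The list also held Mpc1 and Mpc2, for pyruvate entry, and Abcg2, for urate handling, which are carriers and not enzymes. Of 28 genes that passed the filter 12 rose and 2 fell in Fat, beside 3.99% and 5.0% of all tested genes. Their median log2 difference was 0.25 beside 0.01. This list was drawn up with earlier results of these data known, so no enrichment is read from its counts or its median. Among the enzymes that phosphorylate glucose, Hk1 rose (log2 difference 0.29, limma adjusted p = 0.0305, and 0.0733 to 0.108 in the 3 of 4 fits with a library left out that lost the call), Hk3 fell (-0.54, adjusted p = 0.0145) and Hk2 had a log2 difference of -0.03 (adjusted p = 0.852). Of the glycolytic enzymes Gpi1, Pfkl, Tpi1, Gapdh, Pgk1, Eno1, Eno2 and Pkm rose, by 0.27 for Pfkl to 0.62 for Gapdh on the log2 scale. Gapdh was listed at only 3.28 CPM in Con and 5.08 CPM in Fat, from 112 to 218 reads per library, and its call was lost with no filter (adjusted p = 0.0751), by DESeq2 (0.0871) and in 3 of 4 fits with a library left out (0.0655 to 0.182). Ldha, whose subunit favours lactate formation, rose from 653 ± 46.8 to 836 ± 25.4 CPM (log2 difference 0.36, adjusted p = 0.0249), and Ldhb, whose subunit favours lactate use, fell from 38.6 ± 0.398 to 30.7 ± 0.845 CPM (-0.33, adjusted p = 0.0213). The TPM ratio of Ldha to Ldhb was 10.8 and 11.8 in the Con libraries and 18.2 and 18.2 in the Fat libraries. H6pd, which uses glucose 6-phosphate inside the endoplasmic reticulum, rose (log2 difference 0.25, limma adjusted p = 0.0372), as did Akr1b3, the aldose reductase that reduces glucose to sorbitol (0.51, adjusted p = 0.0145). Of the abundant genes that were not called, Aldoa had a log2 difference of 0.22, G6pdx 0.03 and Xdh -0.03 (limma adjusted p = 0.108, 0.84 and 0.841).

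Without Fat replicate 2, 6 route genes were called higher and 1 lower, without Con replicate 1 the counts were 8 and 1, without Con replicate 2 they were 10 and 1, and without Fat replicate 1 they were 9 and 3. Gpi1, Tpi1, Pgk1, Eno1, Eno2, Akr1b3 and Hk3 stayed called in each of these 4 fits, while Hk1, Gapdh, Ldha, Ldhb and H6pd lost the call in 3 of them and Pfkl and Pkm in 2. Stretches of 75 bases that also stand in transcripts of other genes made up 52.8% of those of Pgk1, 23.0% of Eno1 and 22.6% of Gapdh. They made up 17.8% for Pkm, 12.6% for Ldhb, 8.32% for Akr1b3, 4.17% for Gpi1, 2.47% for Ldha and 1.35% for Tpi1. The stretches were pooled over all transcript forms of each gene, so the share within any 1 form may be higher or lower. Reads of these genes may be lost or shared. Of the 8 transporters Slc2a3 alone had such stretches, at 0.315% of its sequence.

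**Figure D4:**
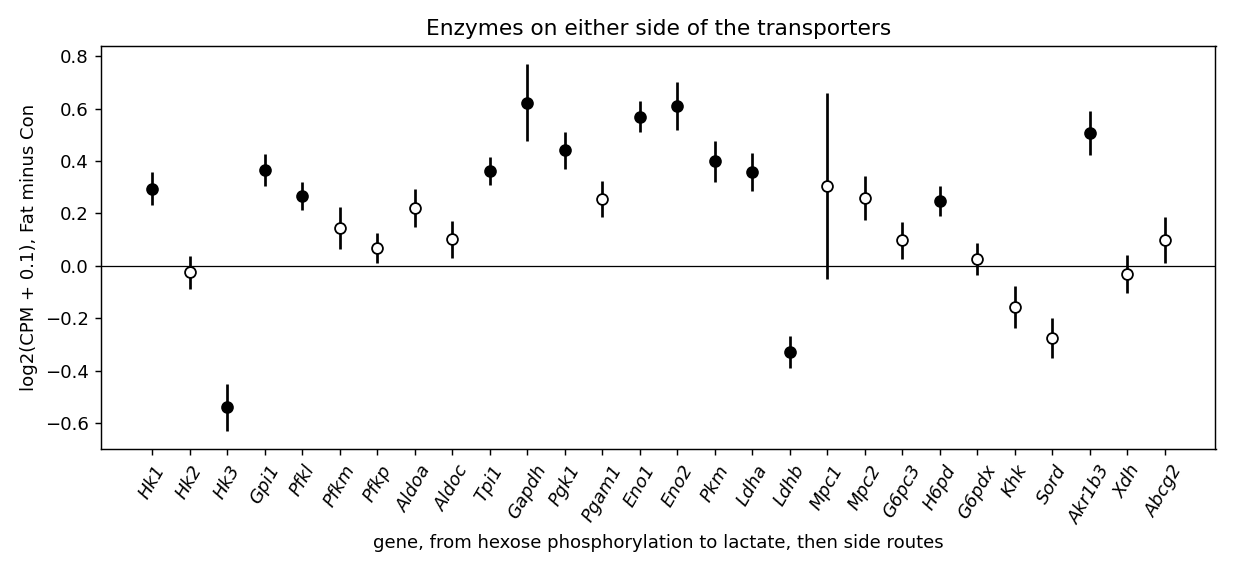
Difference between Fat and Con in log2(CPM + 0.1), with standard errors, for the 28 enzymes and related genes tested, from hexose phosphorylation to lactate and then side routes, filled where limma's adjusted p-value was under 0.05. Of the filled points 12 lie above 0, among them Eno1 and Ldha, while Hk3 (-0.54) and Ldhb (-0.33) lie below 0.

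The genes outside these lists whose profile over the 4 libraries was nearest to that of Slc2a1 were Palld, Mgst2 and Cytip, at distances of 0.08, 0.09 and 0.09 on the log2 scale among the 9700 genes averaging 5 CPM or more. Nearest to Slc2a6 were Kif5c, Batf2 and Ccl22, at distances of 0.08, 0.13 and 0.16. The distance is Euclidean, between values centred on each gene's mean, and over 4 libraries it is a description only. Kif5c was at 12.7 and 12.7 CPM in Con and at 6.54 and 6.05 CPM in Fat. Batf2 was at 14.8 and 13.4 CPM in Con and at 7.47 and 7.22 CPM in Fat. Ccl22, a chemokine gene and the farthest of the 3, was at 25.1 and 22.8 CPM in Con and at 11.8 and 13.2 CPM in Fat.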

How the data were processed

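Single-read RNA sequencing libraries (2 Con, 2 Fat) were grouped by the submitters' titles. The values the authors deposited were CPM (scaled to a common library size) and TPM (corrected for transcript length too). Per the submitters' processing notes the genome build was GRCm39, and the aligner and annotation release are not given in the sources used here. The names of the deposited values hold the word igenomes, and some symbols, such as Emr1, are older ones. Whether the annotation matched that build is therefore not known here. The deposited CPM were whole multiples of a single read (within 0.01) for 100% of the values, so reads were recovered. RefSeq promoters and GENCODE vM21 transcripts were of build GRCm38, so no gene coordinates are given beyond the promoter windows.

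Fat was compared with Con with limma 3.58.1 (R 4.3.3) on log2(CPM + 0.1), two-sided, using the trend of variance with level and Benjamini-Hochberg adjustment. The main limma fit and the edgeR and DESeq2 fits were also run on simulated counts, and the other repeats named below were not. The simulated counts held no deviation shared by same-numbered libraries, so nothing is read from them about the calls given here. An exact permutation test of 2 libraries against 2 cannot go below p = 0.333 (two-sided). The fit was repeated with TPM, a pseudocount of 1, genes averaging 5 CPM, all genes, median ratios, the replicate block, no trend, each library left out, and edgeR 4.0.16 and DESeq2 1.42.0 on recovered reads.

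The 8 genes and the lists were chosen with earlier results of these data known. Named genes were the 8, the list members called, 7 set by name (Bsg, Emb, Txnip, Slc2a4, Slc2a5, Ldha, Ldhb), up to 3 abundant members not called per list, and the 3 nearest profiles of Slc2a1 and Slc2a6. Hif1a and Hk2 were named after their values were seen.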

Additional observations from a re-analysis of the deposited data

How the results depend on the processing

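The log2 differences of Slc2a1, Slc2a3, Slc2a9, Slc16a1, Slc16a3, Slc37a2 and Slc2a6 kept their sign under every alternative that gave a value, and that of Slc2a8 did not with a library left out. Over all genes, 498 were called higher and 624 lower. With the replicate block these were 1278 and 1242, without the mean-variance trend 19 and 12, and with TPM 425 and 366. Dropping any single library, the counts ranged from 216 to 519 and from 313 to 612, both lowest without Fat replicate 2. Related carriers called higher numbered 3, and 1 to 2 with a library left out, and 1 was called lower with the block. Chaperones and regulators called higher numbered 3 with the block and 1 to 2 with a library left out. Route genes called higher numbered 6 to 10 and lower 1 to 3 with a library left out. Without the trend 0 of the genes of these lists were called by limma, although edgeR called 12 route genes higher and 2 lower. Deviations of same-numbered libraries were only weakly related (correlation 0.20 over 12470 genes). The labels tie these libraries by number alone, so the replicate block shows no pairing by design. The direction turned for Rab10 without Con replicate 1 (range over the libraries dropped -0.13 to 0.047), for G6pdx without Fat replicate 1 (-0.030 to 0.082) and for Xdh with TPM (0.0014), without Con replicate 1 and without Fat replicate 2 (0.02; range -0.11 to 0.050), all of them not called. Hif1a and Hk2, not called either, ranged from -0.20 to 0.12 and from -0.09 to 0.04 over the libraries dropped. In CPM, which is not per length, Slc2a1 held 88.3% of its family's sum in Fat against 88.8% in TPM. Except where an alternative uses fewer libraries, the cause was not tested. Slc2a3 rests on 129 to 176 reads per library, the fewest of the 8, and Slc2a4 and Slc2a5 were under the limit of detection.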
